A study of Mus musculus with 14 samples.

Results

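The genes described here are 35 markers of macrophages and of antigen presentation through MHC class II, out of 18820 genes measured in mouse pancreatic islets. They were chosen by name, and each is represented by its brightest probe set with a single gene symbol, brightness being the mean over all arrays. All 35 had such a probe set. They comprise 14 identity and phagocytic markers, 3 receptors for growth and recruitment signals, and 5 Fc receptors and signalling adaptors. The others are 3 pan-leukocyte and lineage genes, the 3 chains of complement C1q, 2 costimulatory ligands and 5 class II genes.

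Islet RNA of 14 mice was hybridised to a whole-transcript expression array, 1 array per mouse by the wording of the labels. Wild-type C57BL/6 mice (WT) were compared with mice of a C57BL/6 background lacking both Tlr2 and Tlr4 (DKO), the receptors for bacterial lipopeptides and for lipopolysaccharide. All mice ate a diet with 60% fat from 6 weeks of age, so no group on another diet was compared here, and islets were taken after 5 weeks or 7 months. Each group had 4 arrays, apart from DKO at 5 weeks with 2. By its title the study asks how Toll-like receptors bear on beta cell growth in obesity. Mice were older at the later time, and age cannot be told apart from time on the diet.

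Macrophages are the main resident immune cells of the islet and sit close to its capillaries. They engulf dead cells and antibody-coated particles, the latter through Fc receptors, of which the activating ones signal by way of the adaptor Fcer1g. Macrophages depend on Csf1r signalling for survival and on the transcription factor Spi1 (PU.1) for their identity. Peptides from engulfed proteins are loaded onto MHC class II, whose chains H2-Aa and H2-Ab1 travel with the invariant chain Cd74. The genes of these chains and H2-Eb1 are switched on together by the transactivator Ciita.

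Values are log2 signals, on which a difference of 1 is a doubling. Array medians lay between 3.89 and 3.98, and arrays of 1 group correlated across genes at 0.980 to 0.989. The islet hormone gene Gcg (glucagon) had group means of 12.09 to 12.95. As a check of the genotype labels, the signal of Tlr2 in DKO fell by 1.66 ± 0.12 at the earlier time (adjusted p = 9.71e-06) and by 1.06 ± 0.10 at the later one (adjusted p = 1.61e-05), while Tlr4 was at 0.35 and 0.31 and did not pass. The Tlr4 probe set lay below the lowest array median in every group (means of 2.86 to 3.30), and at 5 weeks both DKO arrays read above all WT arrays, so it does not check the labels. In all comparisons, tests are limma with Benjamini-Hochberg adjustment over all 18820 genes, ± after a difference is its SE, and a gene passed at an adjusted p under 0.05.

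Mean log2 signals of the members over 14 arrays ran from 2.53 (Cd163) to 9.70 (Cd74). Signals of different probe sets also depend on the probes, so levels are compared between arrays and not between genes. In all, 9 members lay below the lowest array median in all 4 groups: the integrin Itgam, the mannose receptor Mrc1, the haemoglobin scavenger receptor Cd163, the actin-binding Aif1, the beta-glucan receptor Clec7a, the chemokine receptor Ccr2, the costimulatory ligands Cd80 and Cd86, and Ciita. Differences are compressed at such low array signals, and the sizes given for these genes are not exact. The same holds where 1 side of a comparison lay below that median, as Fcgr1 did in WT at both times, Adgre1 in DKO at 5 weeks, Mertk in both genotypes at 5 weeks and Fcgr3 in every group but WT at 7 months. In whole islets, fewer cells of a type and less RNA per cell cannot be told apart.

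**Figure D1:**
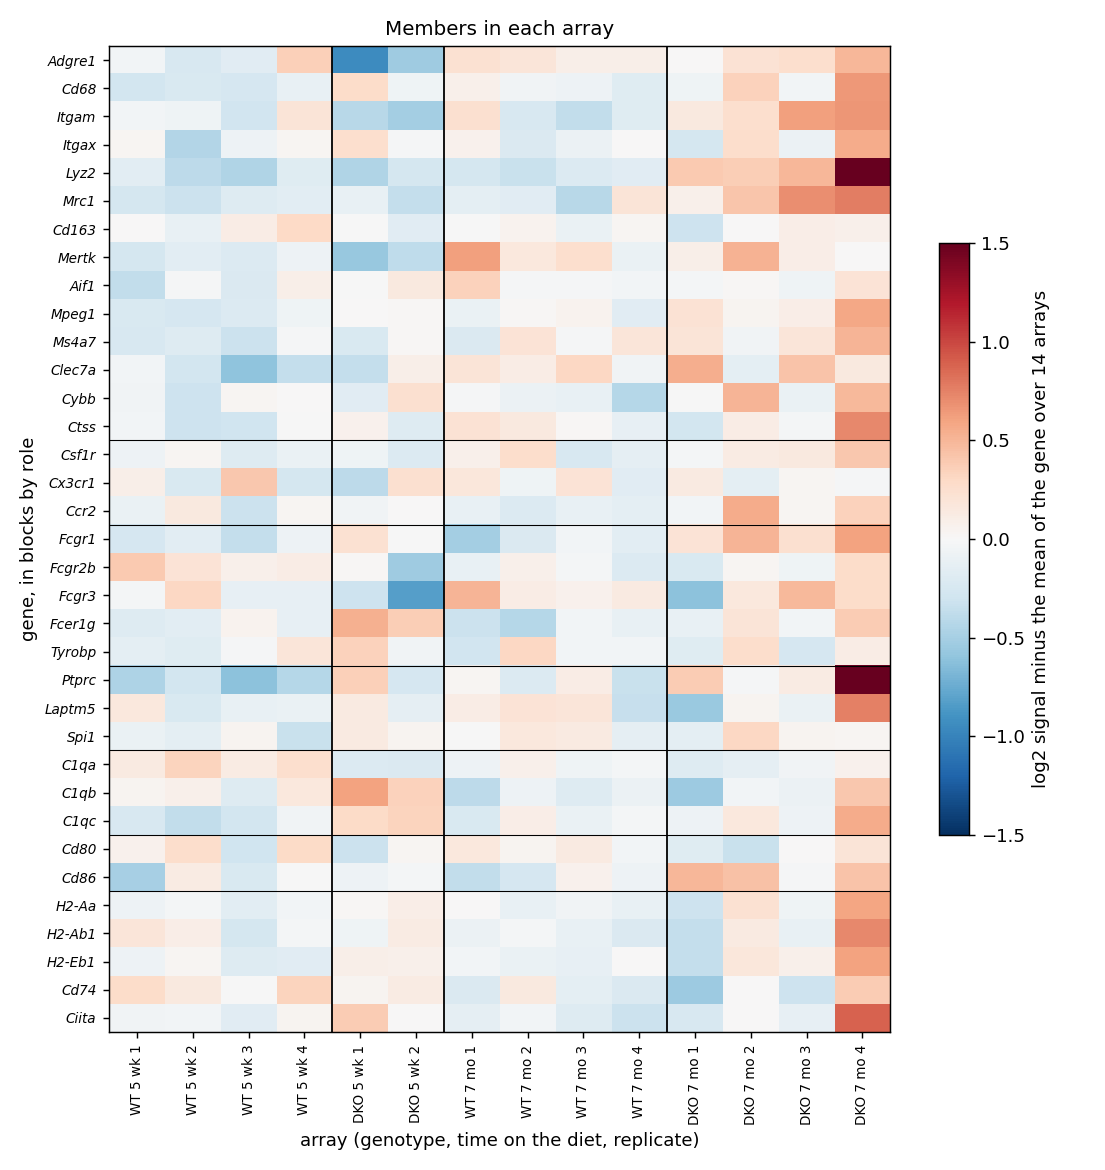
Log2 signal of each of the 35 members in each of the 14 arrays, minus the mean of the gene over the 14 arrays, in blocks by role; red is above and blue below the mean, and the 2 cells past the colour scale's end of 1.5 (Lyz2 and Ptprc in DKO replicate 4 at 7 months) take its end colour. Replicate 4 of DKO at 7 months is the array in which 19 of the 35 members were highest, a count not made over all genes.

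One array stood apart for many members. Replicate 4 of DKO at 7 months was the highest of all 14 arrays for 19 of the 35, including all 5 class II genes, and replicate 1 of the same group was the lowest for 7. Such counts were not made over all genes, so whether they are particular to the members cannot be told. The stellate and fibroblast list mean had its highest value in replicate 4 too, at 0.88. Most lymphocyte markers were also highest in replicate 4. The T cell receptor chain Cd3g read 5.19 there against 1.94 to 2.39 in the other arrays, and the B cell receptor chain Cd79b read 5.39 against 2.80 to 3.64. Of the measured markers, 10 of 12 for T and NK cells and 8 of 10 for B and plasma cells were highest in this array. The mean of the T and NK list, each gene centred over the arrays, ran from -0.07 to 1.21 in DKO at 7 months and did not exceed 0.04 in any other group, and that of the B and plasma list from -0.12 to 1.11. Their part in the results was not tested. Some results of the group are therefore also given without this array, and all others include it. All groups share 1 estimate of the spread, so this array also enters the SE of comparisons without its group. For H2-Aa at 5 weeks the SD was 0.06 in both genotypes, while the SE of the difference was 0.17.

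**Figure D2:**
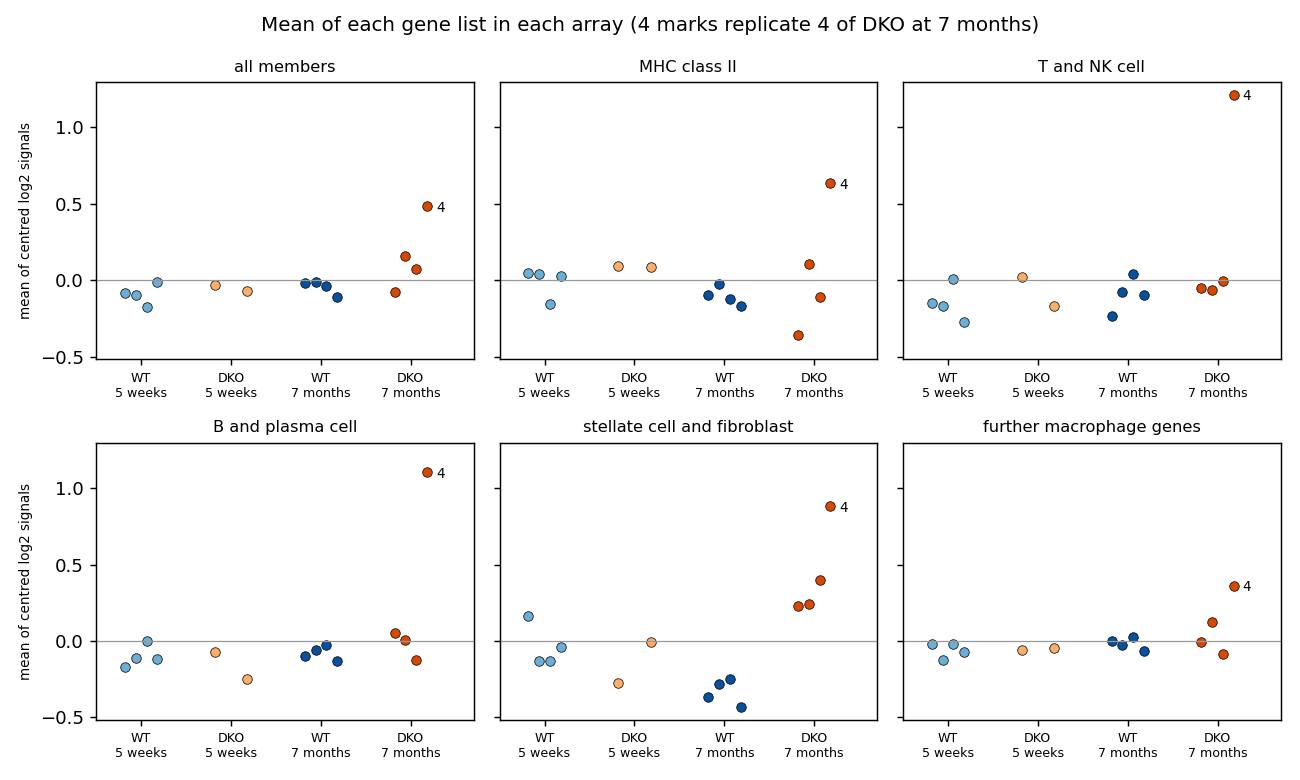
Mean per array of the centred log2 signals of 6 gene lists, by genotype and time on the diet; each point is 1 array, and 4 marks replicate 4 of DKO at 7 months. In that array the mean was 0.49 for all members, 1.21 for T and NK cell markers and 1.11 for B and plasma cell markers.

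After 7 months of the diet, 4 of the 35 members passed the test between genotypes, all higher in DKO: Fcgr1, Lyz2, Mrc1 and Itgam. Of all genes, 2.44% were higher at this threshold. These 4 encode a receptor for IgG, a bactericidal enzyme, a lectin of alternatively activated and perivascular macrophages, and an adhesion molecule of monocytes, macrophages and granulocytes. The other 31, among them C1q, the class II genes and the marker Adgre1, did not pass. The members' median difference was 0.17 against 0.01 over all genes, and 26 of the 35 were positive, as were 53.1% of all genes. Without replicate 4 of DKO the median was 0.03, against 0.02 over all genes, and Lyz2 and Fcgr1 alone passed. Of the 35, 22 were then positive, as were 53.8% of all genes. Replicate 4 was picked out by values of these same members, so their lower median without it is no separate result. An unadjusted p under 0.05 was reached by 10 of the 35 with all arrays, and by 18.4% of all genes.

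Fcgr1, the high-affinity IgG receptor, read 4.10, 4.41, 4.13 and 4.50 in the 4 DKO arrays and 3.38, 3.68, 3.86 and 3.74 in WT. Every DKO array was above every WT array. The means were 4.29 ± 0.20 (SD, n = 4) and 3.66 ± 0.20 (SD, n = 4), a difference of 0.62 ± 0.12, or 1.54-fold (adjusted p = 0.00779; exact permutation test p = 0.0286, two-sided, the smallest that 4 against 4 arrays can give). This gene passed under all 19 alternative settings, with differences of 0.53 to 0.69. The filter on dim genes kept it through its DKO groups only, since both WT means lay below the lowest array median.

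Lyz2, lysozyme M, the antibacterial enzyme of the myeloid lineage, read 6.55, 6.52, 6.66 and 7.76 in DKO and 5.90, 5.83, 5.96 and 5.98 in WT. The WT arrays were tightly grouped, and all DKO arrays lay above them, replicate 4 by far the most. The difference was 0.96 ± 0.21, or 1.94-fold (adjusted p = 0.0161; exact permutation p = 0.0286). Without replicate 4 it was 0.66 ± 0.10 and passed (adjusted p = 0.00142). It did not pass when only the arrays compared were fitted (0.96 ± 0.24, adjusted p = 0.0720) or with a term for acinar RNA (0.93 ± 0.24, adjusted p = 0.0546). Its close paralog Lyz1, the lysozyme of Paneth cells, differed by 0.43 ± 0.16 (adjusted p = 0.157), and whether the 2 probe sets share signal was not tested.

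Mrc1, the mannose receptor, read 3.14, 3.49, 3.76 and 3.84 in DKO and 2.92, 2.90, 2.65 and 3.26 in WT. The groups overlapped by 1 array, replicate 4 of WT lying above replicate 1 of DKO. The difference was 0.62 ± 0.15, or 1.54-fold (adjusted p = 0.0258; exact permutation p = 0.0571). Itgam, the integrin alpha M chain, read 3.02, 3.12, 3.48 and 3.54 in DKO and 3.11, 2.64, 2.51 and 2.70 in WT. Here too 1 WT array, replicate 1, reached into the DKO range. The difference was 0.55 ± 0.15, or 1.47-fold (adjusted p = 0.0461; exact permutation p = 0.0571). Leaving out 1 array ended the Mrc1 call for 5 of the 8 arrays (WT replicates 1, 2 and 3, DKO replicates 3 and 4; adjusted p up to 0.0870) and the Itgam call for 5 of the 8 (WT replicates 2, 3 and 4, DKO replicates 3 and 4; up to 0.138). Without DKO replicate 4, Mrc1 differed by 0.53 ± 0.15 (adjusted p = 0.0761) and Itgam by 0.47 ± 0.15 (adjusted p = 0.128).

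**Figure D3:**
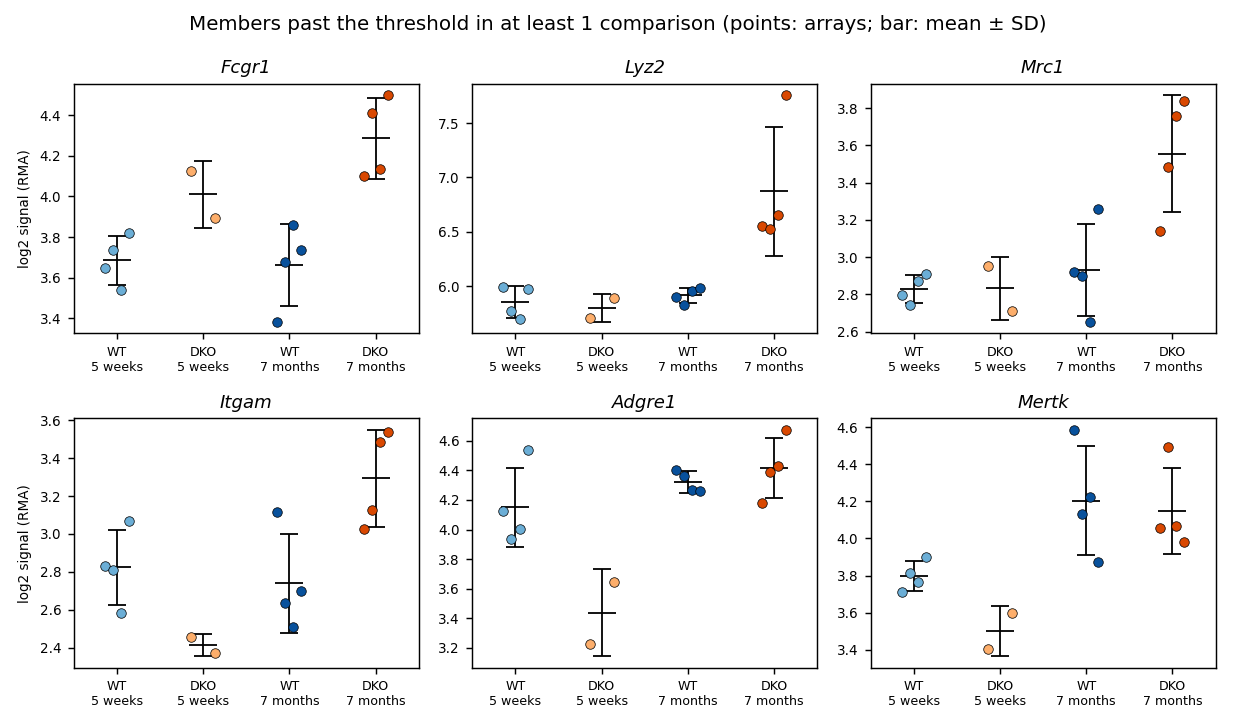
Log2 RMA signal of the 6 members that passed in at least 1 comparison, by genotype and time; points are arrays and bars the mean ± SD of 4 arrays (2 for DKO at 5 weeks), and each panel has its own axis that does not start at 0. Fcgr1 and Lyz2 in DKO at 7 months lie above every WT array, while Adgre1 and Itgam are lowest in DKO at 5 weeks.

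The promoter windows of Fcgr1, Mrc1 and Itgam are shown because these genes were higher together in DKO at 7 months and PU.1, encoded by the member Spi1, binds sites with a core of GAGGAA. Windows run from 250 bases before to 50 after the start, are from RefSeq (GRCm38.p6) and are written 5′ to 3′ on the gene's strand, with GAGGAA in capitals, shown as its reverse complement where the match is on the opposite strand. They are chr3:96293920-96294219 (minus strand) for Fcgr1, chr2:14229164-14229463 (plus strand) for Mrc1 and chr7:128062390-128062689 (plus strand) for Itgam.
Fcgr1: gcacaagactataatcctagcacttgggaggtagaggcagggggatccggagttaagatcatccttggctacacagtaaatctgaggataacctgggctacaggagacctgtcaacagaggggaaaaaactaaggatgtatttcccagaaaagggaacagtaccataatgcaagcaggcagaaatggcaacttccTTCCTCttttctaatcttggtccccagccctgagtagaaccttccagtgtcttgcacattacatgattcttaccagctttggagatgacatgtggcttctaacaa
Mrc1: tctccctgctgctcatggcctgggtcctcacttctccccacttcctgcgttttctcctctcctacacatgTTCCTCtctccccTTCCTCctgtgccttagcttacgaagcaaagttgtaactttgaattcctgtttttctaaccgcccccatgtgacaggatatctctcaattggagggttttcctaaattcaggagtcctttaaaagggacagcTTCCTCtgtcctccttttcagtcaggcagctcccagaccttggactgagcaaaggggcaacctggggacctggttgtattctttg
Itgam: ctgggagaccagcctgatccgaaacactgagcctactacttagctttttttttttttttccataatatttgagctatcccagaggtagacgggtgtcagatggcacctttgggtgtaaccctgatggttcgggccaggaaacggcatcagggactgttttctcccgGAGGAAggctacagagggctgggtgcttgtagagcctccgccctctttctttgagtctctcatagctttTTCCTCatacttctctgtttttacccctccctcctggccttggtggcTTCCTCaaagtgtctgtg
Fcgr1 had 1 match, and Mrc1 and Itgam had 3 each. The match of Fcgr1 began at position -55 from the start. Of all 32851 RefSeq windows, 28.3% held this hexamer on either strand, and 16 of 30 windows found for 26 of the 35 members did. Lyz2 passed as well and its window is not printed, so the windows shown are a selection. A match is a string of letters and says nothing of binding in these islets.

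Of the 31 other members, 22 were positive at 7 months, with differences from -0.16 (Cd80) to 0.61 (Ptprc). The smallest p-values among them belonged to Cd86, a ligand that costimulates T cells (0.49 ± 0.15, adjusted p = 0.0692), to Ccr2, the receptor that draws monocytes out of the bone marrow (0.37 ± 0.13, adjusted p = 0.125), and to Fcer1g, the signalling chain shared by Fc receptors (0.33 ± 0.12, adjusted p = 0.135). Ccr2 read 3.06, 3.66, 3.13 and 3.44 in DKO and 3.00, 2.90, 2.99 and 2.95 in WT, with no overlap. Together with Lyz2 and Fcgr1 that made 3 of 35 members whose DKO arrays all lay higher, against 5.35% of all genes. Cd86 passed when each array was centred on its median (0.54, adjusted p = 0.0449) and without DKO replicate 3 (0.61, adjusted p = 0.0305).

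Several markers of tissue macrophages differed little. Adgre1 differed by 0.10 ± 0.14 (95% interval -0.20 to 0.39), the engulfment receptor Mertk by -0.05, Csf1r by 0.17 ± 0.11, the fractalkine receptor Cx3cr1 by -0.04 ± 0.16 and the C1q chains by -0.06 (C1qa), 0.11 (C1qb) and 0.21 (C1qc). Without DKO replicate 4 Adgre1 was at 0.01, Csf1r at 0.09, C1qa at -0.10, C1qb at -0.04 and C1qc at 0.07. For the pan-leukocyte phosphatase Ptprc (CD45) the difference was 0.61 ± 0.26 (adjusted p = 0.23). Its 4 DKO arrays read 5.36, 4.97, 5.11 and 6.55, and without the highest of them, replicate 4, the difference was 0.26 ± 0.15. For the low-affinity IgG receptors the differences were 0.08 ± 0.13 (the inhibitory Fcgr2b) and -0.13 ± 0.20 (the activating Fcgr3).

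Among phagocytic and lysosomal markers that did not pass at 7 months, the largest differences were those of Cybb, the catalytic subunit of the phagocyte NADPH oxidase (0.38 ± 0.15, adjusted p = 0.185), the pore-forming Mpeg1 (0.28 ± 0.11, adjusted p = 0.165) and the endosomal glycoprotein Cd68 (0.28 ± 0.14, adjusted p = 0.301). Without DKO replicate 4 Cybb was at 0.29, Mpeg1 at 0.17 and Cd68 at 0.14. The integrin Itgax, common to dendritic cells and activated macrophages, was at 0.18, the membrane protein Ms4a7 at 0.17, Clec7a at 0.10 and the class II processing protease Ctss at 0.07. Cd163 was at -0.02, Aif1 at -0.03, the adaptor Tyrobp at 0.00, the lysosomal Laptm5 at -0.00 and Spi1 at 0.02, while Cd80, the partner of Cd86, was at -0.16.

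Class II genes did not pass at 7 months. H2-Aa read 8.18, 8.71, 8.42 and 9.08 in DKO and 8.49, 8.38, 8.44 and 8.38 in WT, so the DKO arrays lay on both sides of the WT arrays. The difference was 0.18 ± 0.14 (95% interval -0.13 to 0.48). For H2-Ab1 it was 0.21 ± 0.17 (-0.17 to 0.58), for H2-Eb1 0.19 ± 0.15 (-0.12 to 0.50), for Ciita 0.31 ± 0.19 (-0.09 to 0.70) and for Cd74 -0.01 ± 0.16 (-0.35 to 0.33). The spread in DKO was wider than in WT: the SD of H2-Aa was 0.39 against 0.06, and that of Ciita 0.51 against 0.12. Without replicate 4 the differences were 0.02 (H2-Aa), -0.00 (H2-Ab1), 0.03 (H2-Eb1), 0.06 (Ciita) and -0.17 (Cd74).

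The class II chains lie side by side in the genome, with 0 protein-coding genes between H2-Aa and H2-Ab1 or between those and H2-Eb1. Class II promoters carry a conserved module on which Ciita is recruited, and the windows of H2-Aa at chr17:34287774-34288073 (minus strand) and H2-Eb1 at chr17:34305617-34305916 (plus strand) are printed with the Y box CCAAT and the X box core AGCAAC in capitals, again as the reverse complement for a match on the opposite strand.
H2-Aa: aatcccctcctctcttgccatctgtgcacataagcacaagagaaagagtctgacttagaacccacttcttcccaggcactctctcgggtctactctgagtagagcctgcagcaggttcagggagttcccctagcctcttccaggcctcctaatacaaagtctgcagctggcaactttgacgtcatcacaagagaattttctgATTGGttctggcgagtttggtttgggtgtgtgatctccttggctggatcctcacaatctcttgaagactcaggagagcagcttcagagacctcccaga
H2-Eb1: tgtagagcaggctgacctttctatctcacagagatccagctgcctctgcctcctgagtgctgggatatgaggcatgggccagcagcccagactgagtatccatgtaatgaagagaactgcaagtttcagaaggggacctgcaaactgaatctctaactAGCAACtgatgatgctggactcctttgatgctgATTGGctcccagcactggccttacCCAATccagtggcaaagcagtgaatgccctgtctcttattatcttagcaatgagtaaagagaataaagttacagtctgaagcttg
The H2-Aa window held 1 Y box match, and the H2-Eb1 window held 2 and an X box core match. Only these exact letters were searched, so the H2-Aa window may hold a variant of the X box that is not marked. Among all windows 37.4% held the Y box letters, 14.8% the X box core and 5.84% both, on either strand. These are short strings found in many promoters.

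**Figure D4:**
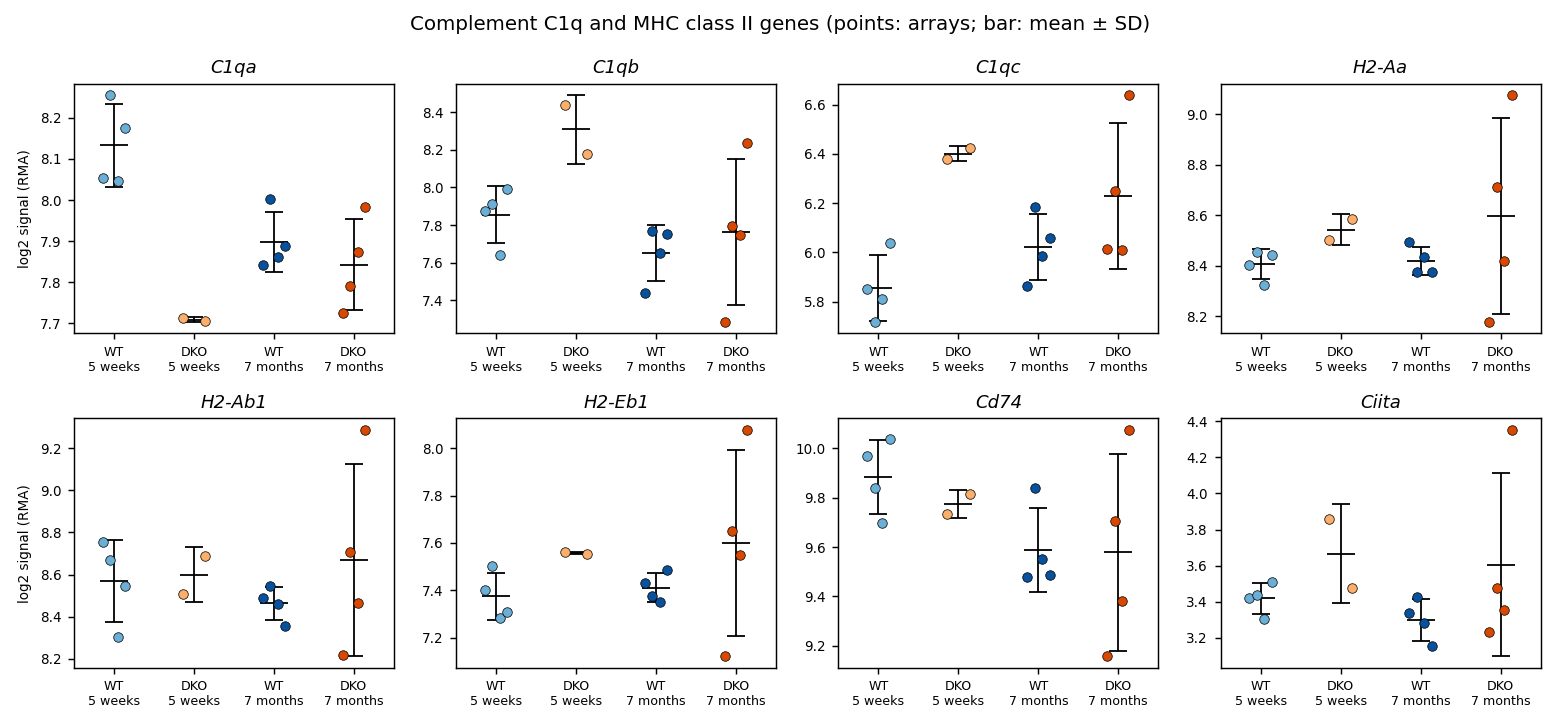
Log2 RMA signal of the C1q chains and the class II genes by genotype and time; points are arrays, bars the mean ± SD, and each panel has its own axis that does not start at 0. At 5 weeks both DKO arrays lay below all WT arrays for C1qa (7.71 in both) and above them for C1qb and C1qc. None of the 3 passed the test. At 7 months the class II genes of DKO other than Ciita spread on both sides of WT.

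After 5 weeks of the diet, 0 of the 35 members passed between genotypes, against 0.994% of all genes, and 9 had an unadjusted p under 0.05, as did 12.1% of all genes. Only 2 DKO arrays were available, and an exact permutation test of 2 against 4 cannot go below 0.0667. The members pointed in different directions: 9 had both DKO arrays above every WT array (11.2% of all genes did) and 6 had both below (10.3% of all genes did). Higher were Cd68, Mpeg1, Fcgr1, Fcer1g, Ptprc, C1qb, C1qc, H2-Aa and H2-Eb1. Lower were Adgre1, Itgam, Mertk, Fcgr2b, Fcgr3 and C1qa. The median over the members was 0.10, against 0.01 over all genes.

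The 3 chains of C1q, which macrophages secrete as a single complex that starts the classical complement pathway, did not run in parallel at this time. C1qa read 7.71 and 7.71 in DKO against 8.05, 8.26, 8.05 and 8.18 in WT, below all of them. The difference was -0.42 ± 0.10 (adjusted p = 0.0601). C1qc read 6.38 and 6.42 in DKO against 5.85, 5.72, 5.81 and 6.04, above all of them, with a difference of 0.55 ± 0.16 (adjusted p = 0.134). C1qb read 8.44 and 8.18 against 7.88, 7.91, 7.64 and 7.99, also above, with a difference of 0.45 ± 0.19 (adjusted p = 0.356). These genes are neighbours with 0 protein-coding genes between them. Within an array, C1qa minus C1qb was -0.73 and -0.47 in DKO at 5 weeks and between 0.14 and 0.40 in the 8 WT arrays. In DKO at 7 months it was 0.44, -0.01, 0.13 and -0.25. This difference was chosen after its values were seen and was not tested, and since it sets 1 probe set against another only its variation between arrays can be read. C1qa passed with a trended robust prior (adjusted p = 0.0230) and without dim genes (adjusted p = 0.0304).

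Adgre1, an adhesion-type receptor used as the standard surface marker of mouse macrophages, read 3.23 and 3.65 in DKO at 5 weeks and 4.13, 3.93, 4.00 and 4.54 in WT. Both DKO arrays were below all WT arrays, and the difference was -0.71 ± 0.17 (adjusted p = 0.0621). It passed when dim genes were left out (adjusted p = 0.0407). Fcer1g read 8.04 and 7.88 in DKO and 7.32, 7.36, 7.57 and 7.39 in WT, above all of them, a difference of 0.55 ± 0.14 (adjusted p = 0.0941). With a trended robust prior it passed (adjusted p = 0.0429). The receptors that signal through this chain were at 0.32 ± 0.15 for Fcgr1 and -0.58 ± 0.25 for Fcgr3, and the inhibitory receptor Fcgr2b, which does not use it, at -0.45 ± 0.16; none of these passed. Of the class II genes, the differences at 5 weeks ran from -0.11 (Cd74) to 0.25 (Ciita).

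Between the times in WT, 0 of the 35 members passed, where 2.37% of all genes did, and 3 had an unadjusted p under 0.05, as did 14.6% of all genes. Those were Clec7a, which rests on the dim end of the scale (0.46 ± 0.16, adjusted p = 0.173), C1qa (-0.24 ± 0.08, adjusted p = 0.174) and Mertk (0.41 ± 0.14, adjusted p = 0.175). C1qa had a mean of 7.90 ± 0.07 (SD, n = 4) at 7 months against 8.13 ± 0.10 (SD, n = 4) at 5 weeks, and every later array lay below every earlier one. The members' median was 0.04 and that of all genes 0.03.

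Between the times in DKO, 5 of the 35 members passed, all higher at 7 months, against 4.86% of all genes. All 5 belonged to the 14 identity and phagocytic markers: Adgre1, Itgam, Lyz2, Mrc1 and Mertk. In 9 of the 35, every array at 7 months lay above both at 5 weeks, which 15.7% of all genes showed. The comparison shares the 4 DKO arrays at 7 months with that between genotypes, so the 2 are not independent.

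Adgre1 read 4.18, 4.39, 4.43 and 4.67 at 7 months, against the 3.23 and 3.65 at 5 weeks, and the groups were apart. It rose by 0.98 ± 0.17, or 1.97-fold (adjusted p = 0.00275; exact permutation p = 0.0667). Its means at 7 months were 4.42 ± 0.20 (SD, n = 4) in DKO and 4.32 ± 0.07 (SD, n = 4) in WT, which overlapped. Itgam had read 2.45 and 2.37 at 5 weeks and was above both in all arrays at 7 months, a rise of 0.88 ± 0.18, or 1.84-fold (adjusted p = 0.00865). Lyz2, at 5.71 and 5.89 at 5 weeks, rose by 1.07 ± 0.25, or 2.11-fold (adjusted p = 0.0189), again with no overlap.

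Mrc1 read 2.95 and 2.71 at 5 weeks and rose by 0.72 ± 0.18, or 1.65-fold (adjusted p = 0.0248). Mertk, the receptor tyrosine kinase through which macrophages take up apoptotic cells, read 3.40 and 3.60 at 5 weeks and 4.06, 4.49, 4.07 and 3.98 at 7 months, with no overlap. It rose by 0.65 ± 0.17, or 1.57-fold (adjusted p = 0.0321). In WT Mertk read 3.71, 3.82, 3.77 and 3.90 at 5 weeks and 4.59, 4.13, 4.23 and 3.87 at 7 months, a difference in the same direction that did not pass. Among members that did not pass in DKO, p was smallest for C1qb (-0.54 ± 0.19, adjusted p = 0.109), Fcgr3 (0.64 ± 0.25, adjusted p = 0.138) and Fcer1g (-0.34, adjusted p = 0.177).

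These time differences rested on the 2 DKO arrays at 5 weeks. Without replicate 1 of that group 0 members passed, without replicate 2 only Adgre1 did, and without replicate 3 of DKO at 7 months Adgre1, Itgam and Lyz2 did. Without replicate 4 of DKO at 7 months Adgre1, Itgam, Lyz2 and Mertk passed, and C1qb did so in the other direction (-0.70, adjusted p = 0.0211). Markers of other cell types also moved between the times in DKO. Of all 18820 genes, 915 passed there as higher and 509 as lower, and 53.7% were positive. Of stellate and fibroblast markers 3 of 15 passed as higher at 7 months, and all 15 were positive. Their list means were -0.27 to -0.01 at 5 weeks and 0.23 to 0.88 at 7 months. Of endothelial markers 4 of 14 passed as higher (list means of -0.30 to -0.07, then 0.14 to 0.34). Of islet endocrine markers 3 of 10 passed as lower (0.13 to 0.14, then -0.41 to -0.03). Their part in the member differences was not tested.

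**Figure D5:**
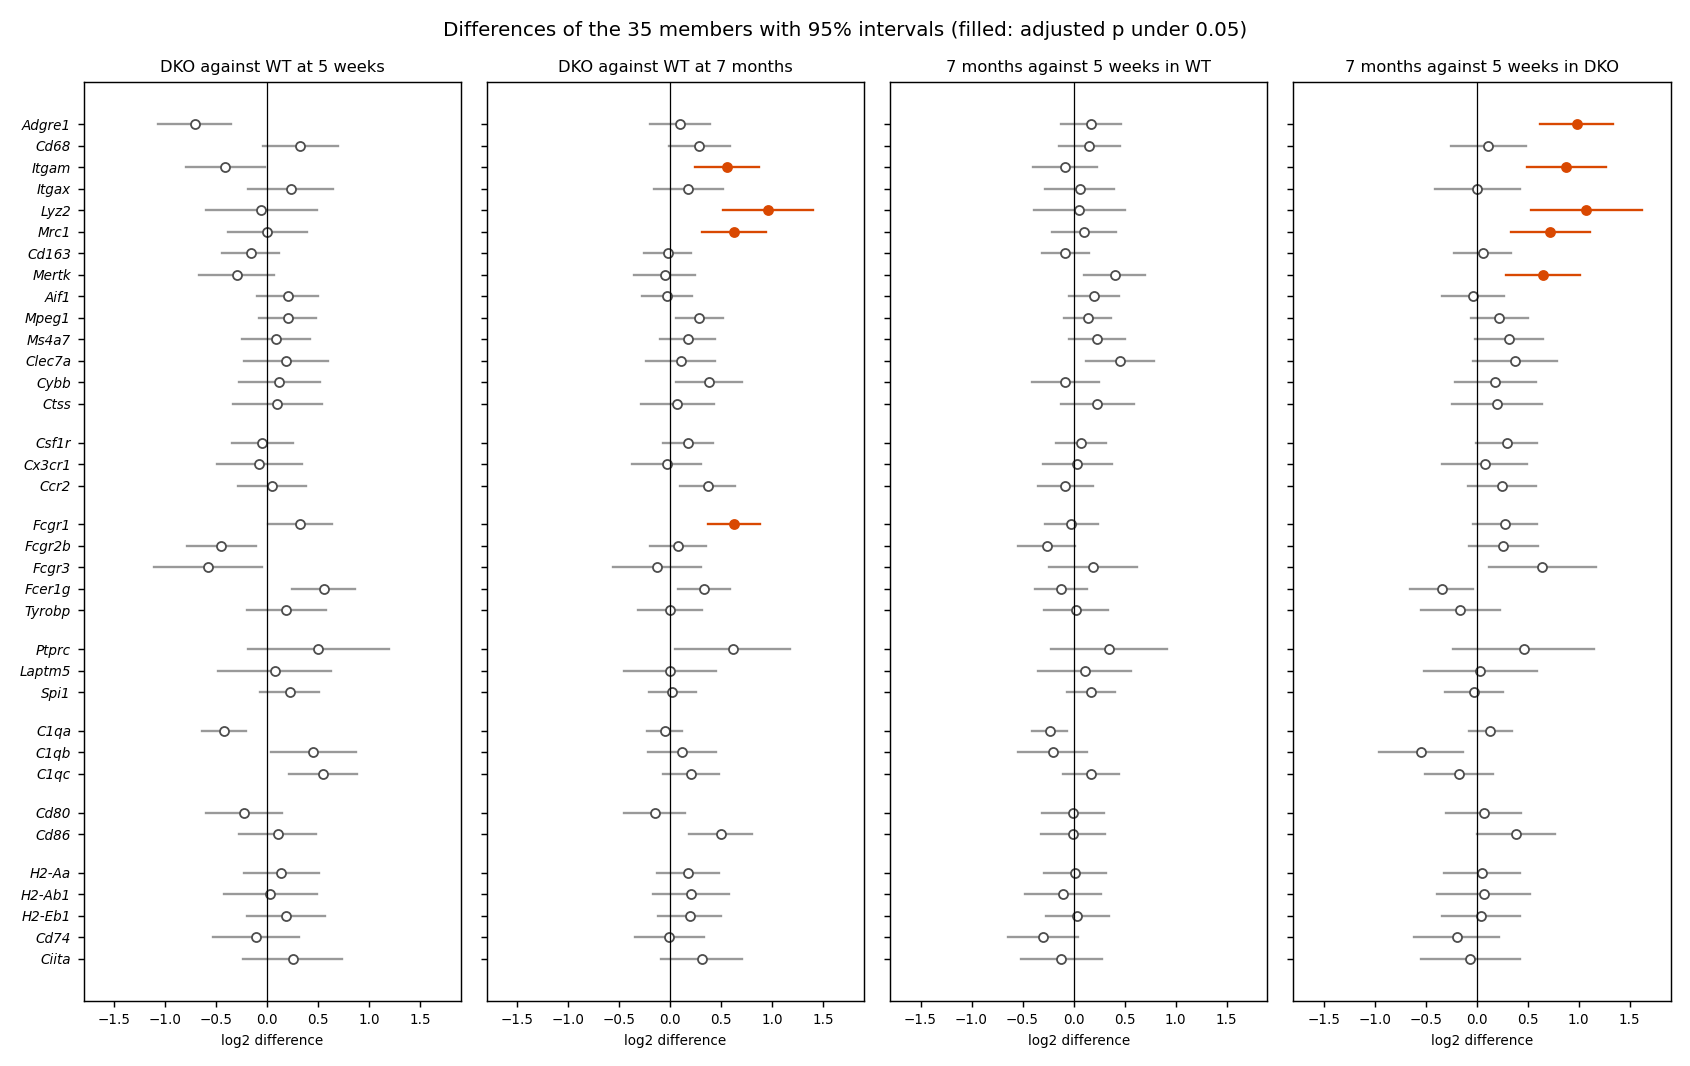
Log2 difference of each of the 35 members in the 4 pairwise comparisons, in blocks by role; lines are 95% intervals of the limma model, and filled orange points passed at an adjusted p under 0.05. Filled points are 4 for genotype at 7 months and 5 for time in DKO, all to the right of 0.

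Whether the genotype difference itself changed between the times was tested by the interaction. Here 0 of the 35 members passed, against 0.0903% of all genes, and 6 had an unadjusted p under 0.05, as did 10.1% of all genes. The smallest p-values were those of Itgam (0.96 ± 0.23, adjusted p = 0.154), Adgre1 (0.81 ± 0.22, adjusted p = 0.186) and Lyz2 (1.02 ± 0.33, adjusted p = 0.277). A genotype effect at 7 months that differs from that at 5 weeks was thus not shown for any member.

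Genes around the members in the same pathways were read from lists. For loading and lysosomal processing of class II, 0 of 10 measured genes passed in limma between genotypes at 7 months, 2 had an unadjusted p under 0.05 (18.4% of all genes had), and the median was 0.24, or 0.09 without DKO replicate 4. The endosomal protease Ctsl differed by 0.24 ± 0.08 (adjusted p = 0.0888), and it rose with time in DKO by 0.39 ± 0.09 (adjusted p = 0.0203). Of 13 class I presentation genes 0 passed (1 at the unadjusted p), with a median of -0.06. Of 27 further macrophage genes 0 passed (4 at the unadjusted p), with a median of 0.11, or 0.00 without DKO replicate 4. The leukocyte tetraspanin Cd53 (0.99 ± 0.31, adjusted p = 0.0867) and the phosphatidylserine receptor Timd4 (0.36 ± 0.11, adjusted p = 0.0778) had the smallest p-values. Without DKO replicate 4 Cd53 was at 0.59 ± 0.20 (adjusted p = 0.134) and Timd4 at 0.30 ± 0.11 (adjusted p = 0.202). Of 15 genes of inflammatory and alternative activation 0 passed (1 at the unadjusted p), with a median of 0.05.

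Among 12 macrophage growth factors and recruiting chemokines, Cx3cl1 alone passed at 7 months. It encodes fractalkine, the ligand of Cx3cr1, and fell by 0.98 ± 0.16 in DKO, from a mean of 5.93 to 4.95, with no overlap (adjusted p = 0.00277). In DKO it also fell by 0.98 ± 0.20 between the times (adjusted p = 0.00794), a comparison that shares the later arrays. Its receptor Cx3cr1 did not pass in any comparison. Il34, a second ligand of Csf1r, was at 0.39 ± 0.12 at 7 months (adjusted p = 0.0785) and 0.57 ± 0.14 at 5 weeks (adjusted p = 0.0825). Of 8 complement genes beyond C1q, factor B (Cfb), which forms the convertase of the alternative pathway, rose by 0.66 ± 0.18 in DKO at 7 months (adjusted p = 0.0474) and the others did not pass. Without DKO replicate 4 Cfb was at 0.48 ± 0.15 and did not pass (adjusted p = 0.112).

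At 5 weeks 0 genes of these 6 pathway lists passed between genotypes in limma. An unadjusted p under 0.05 was reached by 0 to 2 genes a list and by 12.1% of all genes. Between the times Arg1, an arginine-degrading enzyme of alternatively activated macrophages, fell in both genotypes, by 0.87 ± 0.14 in WT (adjusted p = 0.00462) and by 1.02 ± 0.17 in DKO (adjusted p = 0.00251). Its means went from 6.30 to 5.44 in WT and from 6.12 to 5.10 in DKO. In WT the C1 inhibitor Serping1 fell by 0.49 ± 0.11 (adjusted p = 0.0258), and in DKO complement C2 fell by 0.42 ± 0.12 (adjusted p = 0.0481), a call that was lost without replicate 4 at 7 months (-0.43 ± 0.13, adjusted p = 0.0711).

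Markers of other cell types were measured beside these results. Between genotypes at 7 months 0 of 8 dendritic cell, 0 of 8 neutrophil, 0 of 12 T and NK cell and 0 of 10 B and plasma cell markers passed in limma, with 3, 2, 0 and 1 at an unadjusted p under 0.05. Of all genes, 18.4% were under that unadjusted p. In the same comparison 460 of all 18820 genes passed as higher in DKO and 427 as lower, and 53.1% were positive. Stellate cell and fibroblast markers did differ, 10 of 15 passing as higher in DKO. Their list means were 0.23 to 0.88 in DKO and -0.43 to -0.25 in WT. Decorin (Dcn) rose by 1.96 ± 0.30 (adjusted p = 0.00162). Of islet endocrine markers 3 of 10 passed as lower in DKO. Their list means were -0.41 to -0.03 in DKO and 0.04 to 0.12 in WT. Of endothelial markers 2 of 14 passed as higher and 1 as lower. Their list means were 0.14 to 0.34 in DKO and 0.01 to 0.09 in WT. Of mast cell markers 1 of 6 passed as lower. Exocrine acinar markers varied more between arrays than any other list named here, with means of -2.33 to 0.72 in WT and 0.01 to 0.57 in DKO at 7 months, and of -1.58 to 0.59 in WT and 0.83 to 1.34 in DKO at 5 weeks. Of acinar markers 1 of 21 passed as higher in DKO at 7 months. All 21 were positive there, with a median difference of 1.02 against 0.01 over all genes. At 5 weeks 0 passed, 20 of the 21 were positive, as were 51.8% of all genes, and the median was 1.15, against 0.01 over all genes. With the acinar mean as a term in the model Fcgr1 passed at 7 months (0.60 ± 0.14, adjusted p = 0.0337), and Lyz2, as given above, Mrc1 (0.67 ± 0.17, adjusted p = 0.0511) and Itgam (0.58 ± 0.17, adjusted p = 0.0924) did not. The part of stellate, endothelial and endocrine markers in the higher Fcgr1, Lyz2, Mrc1 and Itgam was not tested.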

How the data were processed

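The deposited values are log2 signals of 35556 probe sets in 14 arrays, which the authors made with RMA according to the submitters' processing notes (no version stated). RMA corrects background, equalises array distributions and sums up probes, and the values were used as deposited. Per the labels, each sample gave 100 ng of RNA for biotin labelling. Probe sets with exactly 1 gene symbol (21218) were kept, 1881 with several and 12457 with none were left out, and the brightest probe set per gene gave 18820 genes. Symbols were updated by Entrez identifier for 18790 genes.

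In limma 3.58.1 (R 4.3.3), lmFit estimated the 4 group means from all 14 arrays and eBayes was run with its default prior on 5 contrasts, Benjamini-Hochberg adjustment over all genes in each and a threshold of 0.05. It was tested on simulated data. The limma p-values weigh a difference against the spread between these samples. That spread is pooled over the 4 groups and drawn towards the common level of all genes. The members and lists were chosen with earlier results of these data known. Members past the threshold were given in full, and of the others those with the smallest p, every class II gene, and up to 4 genes of each further list. List means are of genes centred over the 14 arrays. Alternatives were other samples in the fit, another prior, a filter on dim genes, other handling of probe sets, other normalization, terms for acinar RNA, for replicate and for a 5 or 7 carried by each description label, array weights, and leaving out each array. Where 1 of the 2 DKO arrays at 5 weeks was left out, the one left was taken to have the spread of the rest. Promoters and gene order are from RefSeq (GRCm38.p6). Figures were drawn with Python 3.11.15 and matplotlib 3.10.9.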

Additional observations from a re-analysis of the deposited data

Results flagged for a closer look

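In 5 of 105 sets of 4 arrays (35 members in 3 groups), 1 array lay far from the other 3 by Dixon's criterion, a share that chance alone gives at about 1 in 20 groups. Lyz2 read 7.76 in DKO replicate 4 at 7 months, against 6.52 to 6.66 in the others of that group. Cd86 read 3.39 in DKO replicate 3 at 7 months, against 3.84 to 3.91. In WT at 7 months, Aif1 read 3.82 in replicate 1 (others 3.44 to 3.47), Fcgr3 read 4.24 in the same array (others 3.79 to 3.86) and Laptm5, a lysosomal membrane protein of leukocytes, read 6.42 in replicate 4 (others 6.88 to 6.97).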

How the results depend on the processing

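Of 3315 values of single members under alternative settings, 3270 stayed on their side of the threshold, 37 no longer passed and 8 came to pass. Of values that passed as reported or under the alternative, 0 changed direction. Changes of direction among values that passed in neither were not counted. Members past the threshold between genotypes at 7 months, 4 as reported, were 1 when only the arrays compared were fitted, 2 without dim genes and 1 with an acinar term. Members past it between times in DKO, 5 as reported, were 2, 3 and 3 under those settings. At 5 weeks 2 passed with a trended robust prior and 2 without dim genes. The filter on dim genes leaves Itgam and Mrc1 untested. Leaving out 1 array gave 2 to 4 members at 7 months (2 without WT replicate 2, WT replicate 3 or DKO replicate 4), 0 to 6 between times in DKO, and 0 in the other comparisons.

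Counts over all genes moved as well. Between genotypes at 5 weeks, 187 became 120 (arrays compared only), 282 (trended robust prior) and 98 (acinar term), and 44 to 171 with 1 array left out. At 7 months 887 became 488 (arrays compared only), and 528 to 1681 with 1 array left out. Between times in WT, 446 became 289 (acinar term) and 786 (array weights), and 221 to 389 with 1 array left out; in DKO, 1424 became 347 (arrays compared only) and 941 (acinar term), and 378 to 2051. For the interaction, 17 became 46 (trended robust prior), 46 (without dim genes) and 28 (array weights), and 2 to 185. The cause was not tested.

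Groups share replicate numbers. Over 18 pairs of arrays with the same number, deviations from the group means correlated at -0.16 to 0.16 (median -0.01). Over 54 pairs with different numbers they correlated at -0.15 to 0.19 (median 0.00). With 2 to 4 arrays a group, such correlations cannot show whether the numbers pair the mice. For replicate 2 of DKO at 5 weeks the description carries another number than the title, and the title's number was used. With a replicate block, 3 members passed at 7 months (Lyz2, Mrc1 and Fcgr1) and 4 between times in DKO (Adgre1, Itgam, Lyz2 and Mertk). Over all genes the block gave 121 at 5 weeks, 864 between times in DKO and 10 for the interaction. With 2 to 4 arrays a group and 9 members below the array median, small differences in dim genes could not be resolved.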
